A study of Drosophila melanogaster with 3 samples.

Results

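The genes elav, fne, Rbp9, shep and mub, which code for RNA-binding proteins known from fly neurons, are 5 of the 13945 protein-coding genes analysed. They were chosen by name, with the number and the signal ranks of their peaks already known, so those values are described here and not tested. Every summit of the list of reproducible peaks was given to a gene when it lay inside the gene span, or when the transcription start site (TSS) nearest to it was one of that gene and lay within 10 kb. By this rule the 5 genes held 36 of the 8858 summits.

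The samples were 3 biological replicates of chromatin from whole fly embryos of both sexes, collected from 0 to 24 hours of development. All came from 1 transgenic line that stably expresses CG18599, the protein under study, with GFP at its C-terminus, and the precipitation used an antibody against GFP. The labels do not give the promoter that drives the fusion, and all cell types of the embryo and all stages of embryogenesis were mixed. A peak in more cells and a stronger peak in fewer cells can therefore not be told apart, and no peak can be placed in neurons. The authors' list of reproducible peaks was made by IDR (irreproducible discovery rate), a comparison of peak ranks between replicates. Its entries are called IDR peaks here, and rank 1 has the highest signal value as the authors computed it. There was 1 group and no untagged or input sample was analysed here, so all comparisons are between genes, summits and replicates. The deposited lists give no read numbers, and the depth of each library is unknown.

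ELAV, FNE and RBP9 are the fly members of the ELAV/Hu family, proteins with RNA recognition motifs that bind U-rich stretches in transcripts and steer alternative splicing and the choice of polyadenylation site. ELAV is a nuclear protein and a standard marker of neurons, FNE ("found in neurons") is its close relative, and RBP9 acts in neurons and in the female germ line. Shep (alan shepard) also carries RNA recognition motifs and is known for its part in neuronal remodelling, while Mub (mushroom-body expressed) binds RNA through KH domains. Translated from the reference coding sequence, the longest isoforms held 483 residues for ELAV, 371 for FNE and 444 for RBP9. FNE and RBP9 were identical at 72.7% of 341 aligned residue pairs, ELAV and FNE at 66.5% of 340, and ELAV and RBP9 at 58.7% of 395. In number of peaks the family members differed: elav had 4 IDR summits and fne had 8, while Rbp9 had 0.

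The leading summits outside UTRs are shown for each gene because the results turn on them, with 1 weaker shep summit whose window held the most cores of that gene. The 101 bases centred on each summit are given from the plus strand of dm6, and capitals mark TAAT and its reverse complement ATTA, the core that many homeodomains bind.
elav summit of rank 42 (chrX:523427-523527): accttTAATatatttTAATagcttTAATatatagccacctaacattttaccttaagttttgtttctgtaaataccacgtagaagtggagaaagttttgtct
elav summit of rank 492 (chrX:522562-522662): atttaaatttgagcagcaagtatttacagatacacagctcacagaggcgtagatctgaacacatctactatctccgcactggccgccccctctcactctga
elav summit of rank 1954 (chrX:524505-524605): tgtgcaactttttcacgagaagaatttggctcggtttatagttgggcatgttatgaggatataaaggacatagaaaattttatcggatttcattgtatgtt
fne summit of rank 1348 (chrX:12925959-12926059): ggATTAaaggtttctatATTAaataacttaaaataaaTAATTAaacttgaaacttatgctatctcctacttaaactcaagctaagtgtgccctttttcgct
fne summit of rank 1618 (chrX:12938010-12938110): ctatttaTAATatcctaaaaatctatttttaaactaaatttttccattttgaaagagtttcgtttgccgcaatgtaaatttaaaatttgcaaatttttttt
shep summit of rank 639 (chr3L:5278092-5278192): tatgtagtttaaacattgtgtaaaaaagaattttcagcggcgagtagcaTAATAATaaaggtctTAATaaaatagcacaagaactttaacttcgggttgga
shep summit of rank 718 (chr3L:5187082-5187182): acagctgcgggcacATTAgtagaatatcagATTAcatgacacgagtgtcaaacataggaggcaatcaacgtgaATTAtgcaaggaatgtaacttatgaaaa
shep summit of rank 7543 (chr3L:5183340-5183440): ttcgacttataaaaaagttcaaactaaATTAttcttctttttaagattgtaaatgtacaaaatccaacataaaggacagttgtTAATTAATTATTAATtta
mub summit of rank 358 (chr3L:21880461-21880561): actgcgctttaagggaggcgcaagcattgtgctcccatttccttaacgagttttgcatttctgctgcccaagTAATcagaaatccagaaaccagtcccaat
mub summit of rank 1580 (chr3L:21859841-21859941): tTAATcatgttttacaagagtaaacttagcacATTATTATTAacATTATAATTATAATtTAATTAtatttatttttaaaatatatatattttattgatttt
These windows differ in how many cores they hold. The elav window of rank 42 held 3 cores, whereas those of rank 492 and 1954 held 0. The mub window of rank 1580 held 10 cores and that of rank 358, the strongest of mub, held 1. The shep window of rank 7543 held 7, against 3 in each of those of rank 639 and 718. The fne windows of rank 1348 and 1618 held 4 and 1.

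Of the 5 genes 4 had an IDR summit, against 32.2% of all protein-coding genes. The same 4 genes had a summit among the first 8858 entries of replicates 1, 2 and 3, against 32.2%, 33.4% and 31.8% of all protein-coding genes. Genes of like length are the closer comparison. Among the 964 genes with a span over 10 kb and up to 20 kb, the class of elav and Rbp9, 63.2% had a summit, and the median gene had 1. Among the 706 genes over 20 kb and up to 50 kb, the class of fne, 79.5% had one and the median was 2. Among the 307 genes over 50 kb, the class of shep and mub, 87.0% had one and the median was 4. Set beside these, elav with 4, fne with 8 and shep with 19 summits lay above the median of their class, mub with 5 lay close to it, and Rbp9 with 0 lay below it. In the class of elav and Rbp9 355 genes had 0 summits, so the absence at Rbp9 was shared by many genes of its length. Counts of 4 or more were found at 4.67% of all protein-coding genes of any length. In the length classes, from short to long, the 90th percentile was 4, 7 and 12 summits. Only 9 genes had more summits than shep. The counts of the 5 genes chose them in part and are given as a description.

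**Figure D1:**
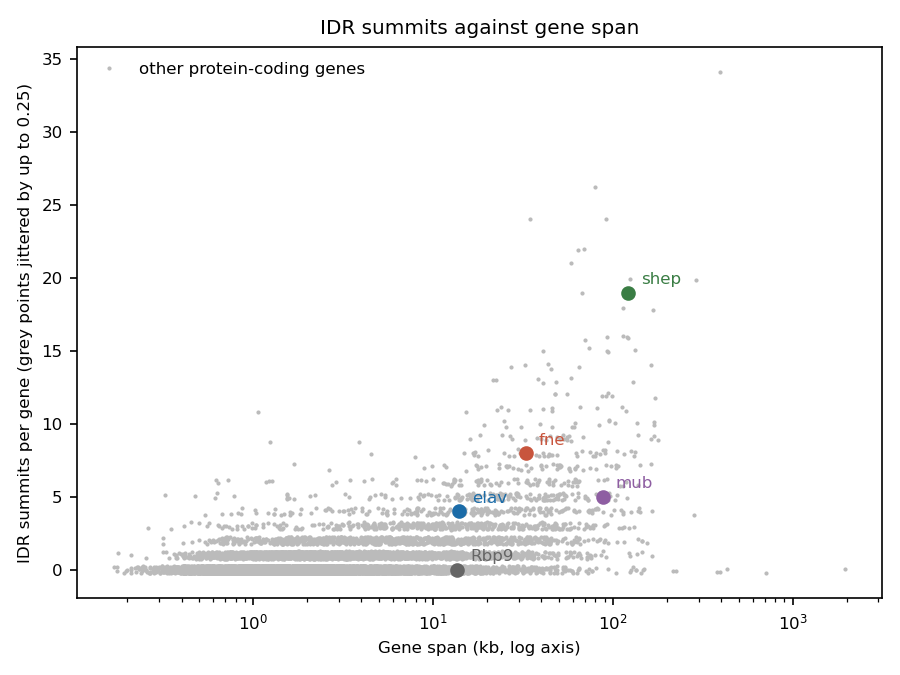
Number of IDR summits per protein-coding gene (vertical axis) against the gene span in kb (horizontal log axis), with the 5 genes in colour and all others in grey. The 19 summits of shep stand near the top of genes of its length, and Rbp9 lies on the line of 0 summits with a span of 13.7 kb against 14.0 kb for elav.

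The 36 summits lay mostly away from promoters. Within 500 bp of a TSS were 7 of them, or 19.4%, against 36.1% of all IDR summits. That share is not matched for length: the rule takes every summit inside a gene, and the 4 genes with summits spanned 14.0 to 122 kb. Introns of the gene itself held 23 summits, its untranslated regions (UTRs) held 4, its coding exons held 0, and the other 9 lay upstream of the gene. Of the 36 summits 2 lay in a 5′ UTR, against 8.59% of all IDR summits, and 2 lay in a 3′ UTR, against 1.73%. Among protein-coding TSSs, the set used here, the one nearest to each of the 36 summits belonged to the gene to which the summit was given. With the TSSs of all annotated genes the rule gave 35 summits, with 7 at fne instead of 8. Summits of rank 885 or better, by definition the strongest 10% of all IDR summits, numbered 5 of the 36, with 2 at elav, 2 at shep and 1 at mub. Counted by gene, a summit that strong was found at 5.90% of all protein-coding genes, a share that is not matched for length.

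**Figure D2:**
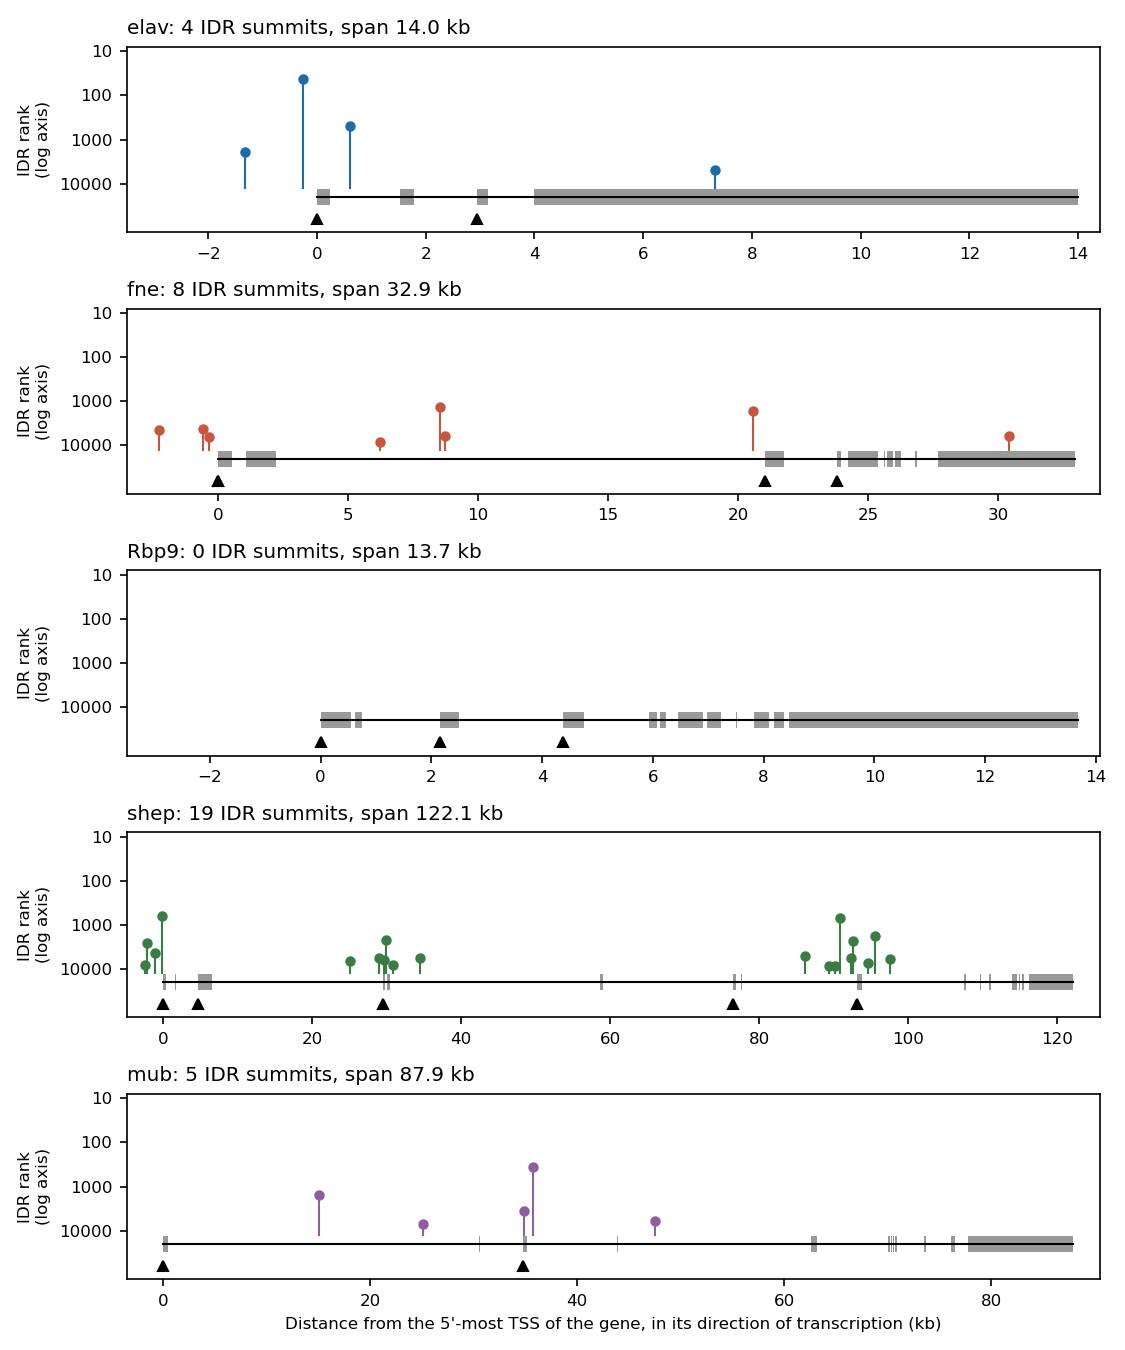
IDR summits along each gene, with the distance from the most upstream TSS in kb on the horizontal axis and the IDR rank of each summit on the vertical log axis, strongest at the top. Grey boxes are exons of all transcripts and black triangles are TSSs. The summits of shep fall into 3 groups of 4, 6 and 9, that of rank 42 at elav stands 251 bp upstream of the TSS, and Rbp9 has none.

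The gene elav (FBgn0260400, minus strand of X from 509235 to 523226) carried the strongest summit of the 5 genes. This summit of rank 42 lay 251 bp upstream of the TSS shared by elav-RA, elav-RC and elav-RD, at X 523477, in a peak of 480 bp. It held ranks 38, 45 and 46 in replicates 1, 2 and 3, and the 3 replicate summits lay within 3 bp of it. The region upstream of elav is also an intron of arg, a gene on the opposite strand whose span overlaps nearly all of elav, so the rule gives the same summits to arg as well. The non-coding lncRNA:enrr overlaps the 2 summits inside elav. A summit of rank 492 lay in the first intron, 614 bp downstream of that TSS, with ranks 275, 754 and 502 in replicates 1, 2 and 3. A summit of rank 1954 lay 1329 bp upstream, with ranks 2985, 1946 and 1511. These summits stood within 1.94 kb of each other, and all were among the first 8858 entries of every replicate. The last summit, of rank 4963, fell in the 3′ UTR, 7.33 kb from the most upstream TSS, with ranks 4465, 4208 and 15370. Replicate 3 placed it far lower than the other replicates. The TSS of elav-RB, 2.94 kb into the gene, had no IDR summit within 500 bp.

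The gene fne (FBgn0086675, plus strand of X from 12917477 to 12950417) had 8 summits against 4 at elav, but none of the strength of the leading elav summit. The best, of rank 1348, lay in the second intron of the long transcripts, 8.53 kb from the most upstream TSS, and held ranks 1229, 1621 and 991 in replicates 1, 2 and 3. The next, of rank 1618, lay 457 bp upstream of the internal TSS at 21.0 kb, where 5 of the 11 transcripts begin, with ranks 2826, 1732 and 1146. Around the most upstream TSS the summits were weaker: ranks 4146, 4420 and 6455 lay 561, 2276 and 357 bp upstream of it. Those of rank 4146 and 6455 stood 204 bp apart and were matched to the same summit of replicate 1, at rank 3709. The summit of rank 4420 lay in an exon of lncRNA:CR45626, with ranks 3857, 4644 and 5719 in replicates 1, 2 and 3. Within the second intron a summit of rank 6173 lay 208 bp from that of rank 1348. Its nearest replicate summits held ranks 9354, 18124 and 11540, all beyond the first 8858, while the replicate summits of its stronger neighbour also lay within 250 bp of it. A summit of rank 8180 lay in the same intron, with ranks 7419, 12128 and 10193. The last, of rank 5967, fell in the 3′ UTR, 30.4 kb from the most upstream TSS, with ranks 5903 and 5518 in replicates 1 and 2 and no summit within 250 bp in replicate 3. Of the 36 summits it was the 1 that lacked a match in a replicate.

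The gene Rbp9 (FBgn0010263, plus strand of 2L from 2954762 to 2968434) had no IDR summit at any of its 3 TSSs or in its span. The nearest IDR summit to a TSS of Rbp9 lay 10076 bp upstream and belonged by distance to lilli. The pooled list, from which the IDR peaks are the first 8858 entries, held 1 entry in Rbp9, at rank 9944. Its summit lay at 2L 2964669 in the 3′ UTR. Entries within 10 bp of that position stood at rank 11575 in replicate 2 and 12439 in replicate 3, and replicate 1 had none there. The best entry of replicate 1, at rank 14378, lay in an intron, 914 bp downstream of an internal TSS, and replicate 3 had an entry of rank 14582 in the same intron. None of the entries at Rbp9 was among the first 8858 of a replicate. Entries in the 3′ UTR stood at rank 4963 in elav and 5967 in fne, both IDR peaks, and at 9944 in Rbp9, outside the IDR list. The share of all genes with a pooled entry in the 3′ UTR was not counted, so this is not shown to be particular to the family. None of these 3 entries was among the first 8858 of every replicate. The absence at Rbp9 is one of rank in these lists, and with no control values or read numbers it does not show that the protein was absent there.

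The weakest IDR summit of the 5 genes was a shep summit of rank 8791, just inside the limit of 8858, with ranks 21870, 5339 and 13039 in replicates 1, 2 and 3. The strongest pooled entry of the 5 genes outside the limit was that of Rbp9, well beyond it at rank 9944.

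The gene shep (FBgn0052423, minus strand of 3L from 5155821 to 5277944) held 19 of the 36 summits, or 52.8%, in a span of 122 kb. Summits inside the span came to 1.23 per 10 kb at shep, 1.43 at elav, 1.52 at fne and 0.569 at mub. Its summits formed 3 groups when split at gaps over 5 kb. The group of 4 lay 198 to 2402 bp upstream of the most upstream TSS, that of shep-RA and shep-RF. It held the strongest shep summit, of rank 639, with ranks 643, 590 and 868 in replicates 1, 2 and 3. The other 3 of that group had ranks 2587, 4338 and 8245. Those of rank 2587 and 8245 stood 202 bp apart and were matched to the same summits of replicate 2 (rank 3406) and replicate 3 (rank 2969). The group of 6 spread over 9.50 kb around the internal TSS of shep-RB, with ranks from 2225 to 8283. The summit of rank 6407 in that group lay in the 5′ UTR, 171 bp from the TSS, with replicate ranks of 11663, 5046 and 1767. The best of the group, of rank 2225, lay 207 bp from it with ranks 4029, 2422 and 1767, so both were matched to the same summit of replicate 3. The group of 9 spread over 11.4 kb around the internal TSS of shep-RE, shep-RH and shep-RI. It was led by a summit of rank 718, 2335 bp upstream of that TSS, with ranks 702, 738 and 581 in replicates 1, 2 and 3. In the same group a summit of rank 1754 lay 2334 bp downstream of the TSS, with ranks 2237, 1651 and 1568, and one of rank 2326 lay 517 bp upstream of it, with ranks 3264, 2560 and 3475. The other 6 of the group had ranks from 5092 to 8791. The leading summits of the first and last groups were not separated by the replicates: replicates 1 and 2 put that of rank 639 ahead, and replicate 3 put that of rank 718 ahead.

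Between the last 2 groups stretched 51.7 kb of shep with no IDR summit. The TSS within the group of 9 had its nearest summit at 517 bp. The TSSs of shep-RG and shep-RD were farther from any IDR summit, the nearest being 9647 bp and 4808 bp away. The pooled list did hold entries 2 bp and 10 bp from them, at ranks 21078 and 23712, deep in the part that the IDR step left out. Within the groups, 2 pairs of shep summits stood within 250 bp of each other, as did 2 pairs of fne, which makes 4 of the 36 summits that follow another within 250 bp, against 7.06% of all IDR summits. Counting such pairs once left 17 regions at shep, 6 at fne and 32 over all 5 genes.

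The gene mub (FBgn0262737, plus strand of 3L from 21844788 to 21932702) had its strongest summit near an internal promoter. The summit of rank 358 lay in an intron 934 bp downstream of the TSS at 34.8 kb, where 8 of the 12 transcripts begin, with ranks 261, 400 and 348 in replicates 1, 2 and 3. A summit of rank 3544 lay in the 5′ UTR, 37 bp downstream of the same TSS, with ranks 3575, 3493 and 4597. At the most upstream TSS, where the other 4 transcripts begin, there was no such summit. The nearest IDR summit, 4235 bp upstream of it, belonged by distance to P5CDh1, and the nearest of mub lay 15.1 kb downstream in the first intron. That summit, of rank 1580, held ranks 2007, 1516 and 1706. The remaining summits of rank 6148 and 7263 lay in introns 12739 and 9714 bp from a TSS. They rested on less even support: replicates 1, 2 and 3 gave ranks 8966, 4444 and 6245 at that of rank 6148, and 10967, 6661 and 6393 at that of rank 7263. When a summit had to be among the first 8858 of 2 given replicates, mub kept 5 summits without replicate 1 but 3 without replicate 2 and 3 without replicate 3.

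By their strongest entry the genes stood in the order elav, mub, shep, fne and Rbp9, and each replicate gave the same order when ranked alone. The best rank of elav was 43.0 ± 4.36 (SD, n = 3 replicates), that of mub 336 ± 70.2, that of shep 605 ± 33.5, that of fne 1280 ± 318 and that of Rbp9 12797 ± 1435. At shep and Rbp9 these were not ranks of a single position. The best of shep in replicate 3 was at the summit of rank 718, and in replicates 1 and 2 at that of rank 639. The best of Rbp9 lay in an intron in replicate 1 and in the 3′ UTR in replicates 2 and 3. The highest and lowest ranks of neighbours in this order did not overlap, since the lowest of mub was 400 and the best of shep was 581. The genes were named with these ranks known, so the order is a description. The number of summits in the first 8858 entries of a replicate was 16.0 ± 2.65 for shep, 6.67 ± 0.577 for fne, 5.0 ± 2.0 for mub, 4.33 ± 0.577 for elav and 0 in each replicate for Rbp9. By this count elav and mub were not separated, with 5, 4 and 4 summits at elav and 3, 5 and 7 at mub in replicates 1, 2 and 3.

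**Figure D3:**
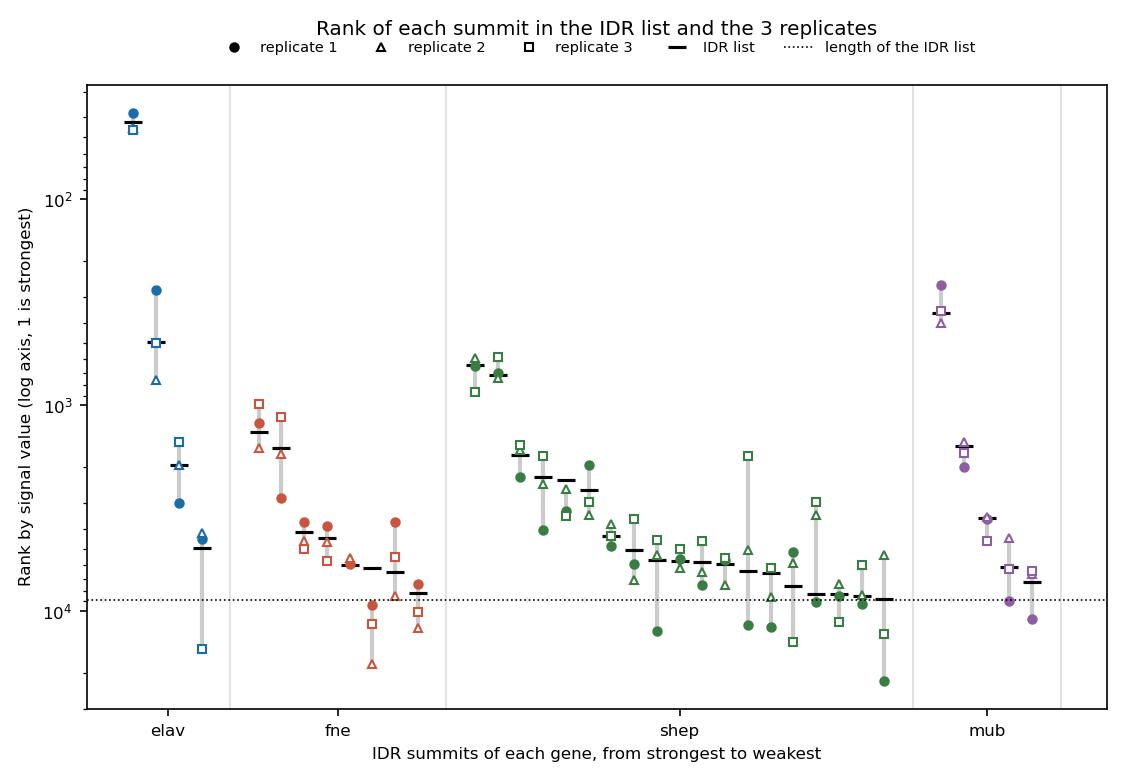
Rank by signal value of each of the 36 summits (vertical log axis, strongest at the top) in the IDR list (black bars) and of its nearest summit within 250 bp in replicates 1, 2 and 3 (symbols), with a grey line over the range of the replicates. The leading summit of elav lies between ranks 38 and 46, and many weak summits of shep and fne have at least 1 replicate below the dotted line at rank 8858.

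Support by the replicates was counted over the first 8858 entries of each, a limit that lies nearer to the weaker summits. Of the 36 summits 26, or 72.2%, had a summit within 250 bp among the first 8858 entries of every replicate, against 70.1% of all IDR summits. Among the 17 summits of rank up to 4429 this held for 17, against 96.1% of all IDR summits of those ranks. Among the 19 weaker ones it held for 9, or 47.4%, against 44.1% of all weaker IDR summits. The shares for the 5 genes were near those of the whole list. For the 17 stronger summits the worst replicate rank was a median of 1.47 times the best, with a range from 1.21 to 2.74. For the 19 weaker ones the median was 1.95 times, with a range from 1.07 to 6.60, so the ranges of stronger and weaker summits overlapped. The 1.07 is that of the fne summit of rank 5967, which was matched in 2 replicates, and the 6.60 that of the shep summit of rank 6407, which shares its replicate 3 match with a neighbour. Among the stronger summits the elav summit of rank 492 had 2.74 times, and among the weaker ones the shep summit of rank 5725 had 1.23 times. If only the nearest replicate summit was allowed to count, 22 of the 36 were supported by every replicate, against 65.7% of all IDR summits. Peak width followed rank closely: 11 of the 36 peaks were not 440 bp wide and all of them had rank 2225 or better, while the 25 peaks of 440 bp began at rank 2326. A width of 440 bp was found at 69.7% of all IDR peaks and 0.339% of the strongest 10%.

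The summits lay in AT-rich sequence. Over the 101-bp windows of the 36 summits the A+T content was 65.5% ± 12.0 (SD over summits), against 60.6% ± 9.47 in windows of equal width 500 bp to either side. Over all IDR summits it was 63.9% ± 10.2, against 57.5% ± 9.99 in the flanks. The windows of the 5 genes ran from 44.6% at the fne summit of rank 6173 to 89.1% at the mub summit of rank 1580. The gene means were 66.6% for shep, 66.1% for mub, 64.4% for elav and 63.2% for fne, all within the spread between summits of a gene.

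**Figure D4:**
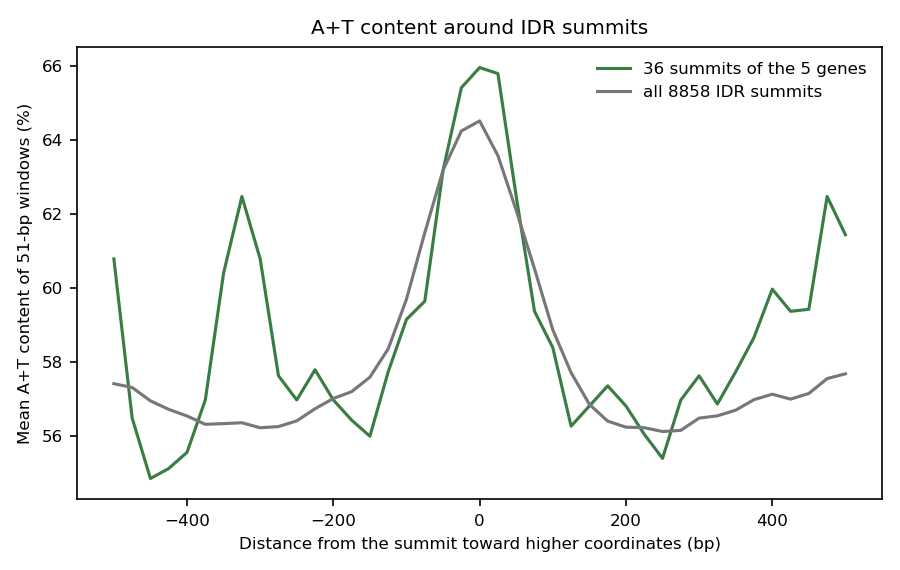
Mean A+T content of 51-bp windows in percent (vertical axis) by the distance of the window centre from the summit in bp (horizontal axis), for the 36 summits of the 5 genes (green) and all 8858 IDR summits (grey). Both lines peak at the summit, at 66.0% for the 5 genes and 64.5% for all, and the green line, which averages 36 windows, is the more uneven.

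Short motifs were searched on both strands in the same windows. The homeodomain core TAAT was present in 25 of the 36 windows, or 69.4%, against 71.8% of all IDR summit windows and 49.6% of windows of equal width centred on the 19252 protein-coding TSS positions. It was found at 2 of 4 elav windows, 5 of 8 fne windows, 13 of 19 shep windows and 5 of 5 mub windows. The flanks of the 36 summits held TAAT in 43 of 72 windows, or 59.7%, and the flanks of all IDR summits in 59.5%. The palindrome TAATTA, which contains the core, was present in 6 windows, or 16.7%, against 9.04% of all IDR windows and 2.99% of the TSS windows. The 6 were those of rank 1348 and 8180 at fne, 5092, 5725 and 7543 at shep, and 1580 at mub. By the strongest summit of each gene, fne held it at rank 1348, and elav, shep and mub did not at ranks 42, 639 and 358. In the flanks of the 36 summits TAATTA was present in 8 of 72 windows, or 11.1%, against 6.56% in the flanks of all IDR summits. Its share was thus higher than in the whole list at the flanks as well as at the summits. The motif ATATTA, which contains the reverse complement of the core, was present in 8 windows, or 22.2%, against 18% of all IDR windows, and one of the 8 was the elav window of rank 42. The extended core TAATTG was in 2 windows, both at mub, or 5.56%, against 9.65% of all IDR windows. Of the motifs without the core, TATATA was in 4 windows, or 11.1%, against 10.8% of all IDR windows. The repeat GAGAG was in 6 windows, or 16.7%, against 12.0%, and 3 of the 6 were at fne. The repeat CACACA was in 2 windows, or 5.56%, against 8.18%. The promoter motif TATCGATA was in 0 of the 36 windows, against 0.824% of all IDR windows. With 36 windows a single window moves a share by several percentage points, and these shares are descriptions of letters near the summits and not of binding sites.

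Other RNA-binding protein genes, most of them known from the nervous system, also carried summits, and were long genes as a group. Of 39 such genes 22, or 56.4%, had an IDR summit, with a median of 2 summits, against 32.2% and a median of 0 for all protein-coding genes. Their median span was 18.3 kb, against 2.17 kb for all, and 63.2% of genes over 10 kb and up to 20 kb had a summit. The 39 genes, and each list within them, mixed short and long genes, so none of these shares is matched for length. Of 16 genes with RNA recognition motifs 11 had a summit, or 68.8%. Their median span was 73.2 kb, and 87.0% of genes over 50 kb had a summit. That class does not match the list, which held lark (2.63 kb) and glo (4.2 kb) beside genes such as Rbfox1 (113 kb). The strongest were msi, the musashi gene of neural precursors (rank 55), the sex determination gene Sxl (rank 552), cpo (rank 567, 12 summits) and Rbfox1 (rank 789, 11 summits), while glo and lark had 0. Of 8 genes with KH domains 5 had a summit, or 62.5%. Their median span was 14.0 kb, but most of them lay outside the class over 10 kb and up to 20 kb. The spans of ps, how and Imp were 37.6, 37.1 and 36.4 kb, and those of Fmr1, BicC and qkr54B 8.70, 6.71 and 5.51 kb. The KH genes were led by the splicing regulator gene ps (rank 535, 8 summits), how (rank 678), Imp (rank 1202) and the fragile X gene Fmr1 (rank 4214). BicC and qkr54B had 0. Of 15 genes with other domains 6 had a summit, or 40%, with a median span of 7.34 kb, against 32.2% of all protein-coding genes. They were led by larp (rank 18, 9 summits), the translational repressor genes brat (rank 156, 10 summits) and pum (rank 1382, 12 summits), and the muscleblind gene mbl (rank 489), while Mettl3 and Mettl14, which code for subunits of the m6A methyltransferase, had 0. The leading summit of elav at rank 42 thus stood between those of larp and msi.

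Of 3 genes whose transcripts are spliced under the control of ELAV, the adhesion gene Nrg had 6 summits (best rank 851), arm, which codes for beta-catenin, had 1 of rank 8671, and ewg had 0. The share with a summit was 66.7% at a median span of 11.2 kb. It is not matched for length, since the spans were 37.8 kb at Nrg, 9.25 kb at arm and 11.2 kb at ewg. Only ewg lies in the class over 10 kb and up to 20 kb, where 63.2% of genes had a summit. Of 12 marker genes of neurons and glia 6 had a summit, with a median of 0.5. The glial gene moody (rank 68) and the cholinergic gene ChAT (rank 219) were strongest, followed by VGlut (rank 3574) and Syn (rank 4088). The rule gave the summit of rank 219 to CG34283 as well, a short gene inside the span of ChAT. The neuronal genes brp and Gad1 had 0 summits, and so had the glial genes repo and gcm. The share was 50%, at a median span of 14.0 kb, against 63.2% of genes over 10 kb and up to 20 kb and 32.2% of all genes. The markers also mixed lengths, with gcm at 2.25 kb and brp at 37.8 kb, so neither share is matched for length.

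Genes most like each of the 5 were found among those with a number of summits within 25%, by the mean absolute difference in log10 rank of the strongest summit over the 3 replicates. For elav these were CG3726 (0.034) and Hyls1 (0.055), each with 3 summits. For fne they were Ptp10D (0.014) and scyl (0.029), each with 9 summits. For mub they were CG4297 (0.0443) with 6 summits and CG33158 (0.0444) with 4. For shep only 19 genes qualified by number, and tna (0.116) and fz (0.143), each with 15 summits, came closest. The likeness is one of rank and number only, and many genes share such values.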

How the data were processed

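Peak lists on dm6 were used, made by ChIP-seq in 3 replicates of 1 group. Per the deposited notes, each replicate list of 30000 entries holds peaks and background from the reads of the replicate and a control, the pooled list comes from all 3 replicates with no control named, and the IDR list of 8858 peaks comes from these. No aligner, peak caller or IDR threshold is named, and depth is unknown. The authors' deposited signal value (its scale is not given) served for ranks alone, and the deposited −log10 q-value as another ranking. Lists on dm3 were not used.

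The members and gene lists were chosen with earlier results of these data known, so no result was tested. Gene models were Ensembl release 115 and the sequence the matching RefSeq assembly. Summits are counted from 1. A replicate summit within 250 bp was a match, and a replicate's top list was its first 8858 entries. Motif windows reached 50 bp to each side. Named were the 5 genes with every summit, and from each list the 4 genes of best rank and 2 without a summit in order of symbol. Also named were the glial genes repo and gcm, the 2 genes most like each member, and genes that share a named summit. Proteins were aligned globally with Biopython 1.88 (BLOSUM62). Assignment, matching and motif steps, in Python 3.11.15 with pandas 2.3.3, were tested on simulated data with known answers. Alternatives were other distances, TSS sets, rankings, matches, windows, the stronger part of the list and leaving out each replicate. SDs over 3 replicates measure the spread between these libraries only.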

Additional observations from a re-analysis of the deposited data

How the results depend on the processing

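The total of 36 summits lay between 26 and 35 under every alternative but 2: it stayed 36 with a TSS distance of 5 kb and was 17 with ranks up to 4429 alone. Leaving out a replicate gave 26 to 31, counted as IDR summits with a match in the top lists of the other 2. The same count over all 3 replicates gave 26. The fall from 36 thus came with this filter and not with the loss of a replicate. The 7 summits within 500 bp of a TSS became 13 within 1000 bp and 3 within 250 bp, by construction of the limit. The 26 summits supported by every replicate became 16 with a replicate list of 4429 entries; a match by the nearest replicate summit alone, chosen after seeing the data, gave 22. TAATTA was at 3 summits with 25 bp to each side and at 2 among ranks up to 4429, against 6. Ranked in 1 replicate alone, the best rank was 991 for fne in replicate 3, 590 and 581 for shep in replicates 2 and 3, and 261 for mub in replicate 1. Without each replicate in turn, as a geometric mean of the other 2, it was 585 to 616 for shep. With the gene span alone elav had 2 summits and fne 5, and with the nearest TSS alone mub had 3; with ranks up to 4429 alone fne had 4, shep 7 and mub 3. Rbp9 had 0 summits under all of its alternatives. The depth of the libraries is unknown, so it cannot be said which weak summits it limits. No paired analysis was possible because the 3 replicates form a single group.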

Other observations

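Below the IDR limit the pooled list held further entries given to the 5 genes by the same rule. There were 32 at shep (best rank 10893), 23 at mub (best rank 10923), 7 at elav (best rank 11544), 5 at fne (best rank 10270) and 1 at Rbp9 (rank 9944). The share of pooled entries kept as IDR peaks thus differed between the long genes, with 19 of 51 at shep and 5 of 28 at mub. This difference was not tested.

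Upstream of shep, 3 more IDR summits had its TSS as the nearest but lay beyond 10 kb and were not counted. That of rank 1439 lay 10398 bp away, with ranks 1470, 1476 and 1503 in replicates 1, 2 and 3. Those of rank 7320 and 2071 lay 11773 and 19474 bp away.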
